A study of Mus musculus with 31 samples.

Results

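Malat1, Neat1 and Gas5 are 3 long noncoding RNAs that are abundant in most mammalian cells. They were located in the RNA tables by position, as every locus with a base in 1 of 3 given mm9 intervals, for Malat1 and Neat1 on chromosome 19 (minus strand) and for Gas5 on chromosome 1 (plus strand). In all, 41 of the 179682 loci in the 5 distinct tables did so. No mm9 annotation was used, and the intervals were compared only by width with RefSeq genes of GRCm38.p6. These are 6983 bases long for Malat1, 20773 for Neat1 and 3939 for Gas5, against intervals of 7100, 20800 and 4100 bases.

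The series compares mouse embryonic stem (ES) cells that lack Srap1 (knockout, KO) with co-derived wild-type ES cells. Srap1 encodes a protein with an SRAP domain that binds DNA and is also known as Hmces. All cells were of 129SVxC57/BL6 background and were grown on gelatin with serum, leukemia inhibitory factor, 2i and ascorbic acid. The groups are wild type, with 4 RNA tables, called wild type 1 to 4 here, and Srap1 KO, with 2 RNA tables that were identical and count as 1 sample. All RNA was depleted of ribosomal RNA. The labels give neither the number of clones or lines nor any separate cultures. The tables name no gene, so the level of Srap1 and of ES cell markers was not examined, and genotype and cell type rest on the labels.

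Malat1 and Neat1 are neighbouring genes whose RNAs stay in the nucleus. Malat1 is an unspliced transcript found in nuclear speckles, and its 3′ end is cut by RNase P, which releases the small mascRNA. Neat1 builds paraspeckles. It has a short isoform that covers only the 5′ part of the gene and a long isoform that runs through the whole gene, and the long one is needed for paraspeckles. Gas5 is spliced, and its introns encode box C/D snoRNAs, which guide methylation of ribosomal RNA. Its message begins with a pyrimidine tract, the mark of growth-regulated translation, and translation of its short reading frame exposes the spliced RNA to nonsense-mediated decay.

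RefSeq promoters, from 250 bases before to 50 bases after the start of the gene, matched 2 of the 3 genes. They are shown because the 5′ ends of the RNA loci lay within a few bases of each other in the wild-type tables, as described below. Capitals mark the 50 bases from the annotated start onwards. Malat1 is at chr19:5802623-5802922, minus strand, and the Gas5 starts are at chr1:161034351-161034650 and chr1:161034916-161035215, plus strand, all on GRCm38.p6.
Malat1: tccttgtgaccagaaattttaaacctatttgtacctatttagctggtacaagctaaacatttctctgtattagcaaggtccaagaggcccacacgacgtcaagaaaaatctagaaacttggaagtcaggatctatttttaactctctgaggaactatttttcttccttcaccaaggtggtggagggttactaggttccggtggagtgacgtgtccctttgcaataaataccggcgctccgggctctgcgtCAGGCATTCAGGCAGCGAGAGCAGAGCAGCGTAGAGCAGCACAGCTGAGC
Gas5, upstream start: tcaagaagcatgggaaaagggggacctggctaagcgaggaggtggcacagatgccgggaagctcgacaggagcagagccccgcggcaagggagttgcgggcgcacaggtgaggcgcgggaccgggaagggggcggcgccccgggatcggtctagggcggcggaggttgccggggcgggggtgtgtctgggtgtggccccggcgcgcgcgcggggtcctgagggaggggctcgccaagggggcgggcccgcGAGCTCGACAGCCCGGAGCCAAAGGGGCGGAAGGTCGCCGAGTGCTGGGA
Gas5, downstream start: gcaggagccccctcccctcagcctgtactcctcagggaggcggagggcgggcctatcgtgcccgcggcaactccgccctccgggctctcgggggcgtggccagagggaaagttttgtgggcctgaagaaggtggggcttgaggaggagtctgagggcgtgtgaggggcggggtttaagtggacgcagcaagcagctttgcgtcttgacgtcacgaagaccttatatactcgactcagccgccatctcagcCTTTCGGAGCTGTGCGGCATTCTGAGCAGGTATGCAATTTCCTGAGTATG
The downstream Gas5 start opens with CTTTC, a C followed by pyrimidines. The GC content was 47.0% for Malat1, 73.7% for the upstream and 62.0% for the downstream Gas5 start, and the median of 32851 promoters was 52.7%. The motif TGACGTCA, which reads the same on both strands, lay at position -46 from the downstream Gas5 start and is held by 1.79% of all promoters. The motif TATATA, also the same on both strands, lay at -29 and is held by 5.67%. Neither motif was in the other promoters shown. Both motifs were picked after the sequences were seen.

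The levels are FPKM, a fragment density along the transcript scaled to the depth of its table, with the authors' lower and upper bounds. Loci were assembled separately in each library, so a gene can be 1 locus in one table and several in another. The tables give no depth, and the bounds allow only approximate estimates of it. The fragments they imply summed over all listed loci to 895779 to 926460 in the wild type and 10804700 in the KO. The median rate of fragments per FPKM and kb at loci of middling width gave higher totals, about 1510000 to 1550000 and 15540000. A single locus on chromosome 17 held 61.4% to 62.2% of the summed fragments in the wild type and 3.51% in the KO, or 36.6% to 37.1% and 2.44% of the totals from the median rate. Where it counts in the scaling of FPKM, it lowers the levels of all other wild-type loci, and its part in the ratios below was not tested. Genotype, depth and makeup of the tables change together and cannot be told apart. Between wild-type tables, 125 to 145 loci per pair could be matched, with both ends at most 5 bases apart and 10 or more implied fragments in each table. Their median absolute difference in FPKM was 0.848 to 1.20 times the median that sampling noise of the size of the bounds would give under a normal distribution. At 4 to 10 of these loci per pair the difference was over 4 standard errors. At these matched loci the 4 wild-type tables thus differed at the median by about sampling noise. Single loci could differ more. By its ends and implied fragments Gas5 is within these limits in wild type 2 and 3, at 82.1 and 371 FPKM. So is the longer of the 2 Malat1 loci of wild type 1, at 325 FPKM, with the single locus of wild type 4, at 587 FPKM. Loci with ends further apart were not compared in this way. The 4 tables are counted as 1 sample and are given as 4 values and a range.

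Malat1 was 1 continuous stretch in every table and had the highest FPKM of the 3 genes when averaged over the interval. It was a single locus at 591 FPKM (bounds 563 to 618) in wild type 2 and at 587 FPKM (bounds 559 to 614) in wild type 4. In wild type 1 it was listed as 2 nested loci that share the 5′ end, at 325 and 272 FPKM. In wild type 3 the nested loci had 420 and 168 FPKM. Added together, the nested loci gave 597 FPKM in wild type 1 and 588 FPKM in wild type 3, so the 4 wild-type sums lay between 587 and 597 FPKM however the locus was divided. The KO had a single locus at 672 FPKM (bounds 644 to 700).

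**Figure D1:**
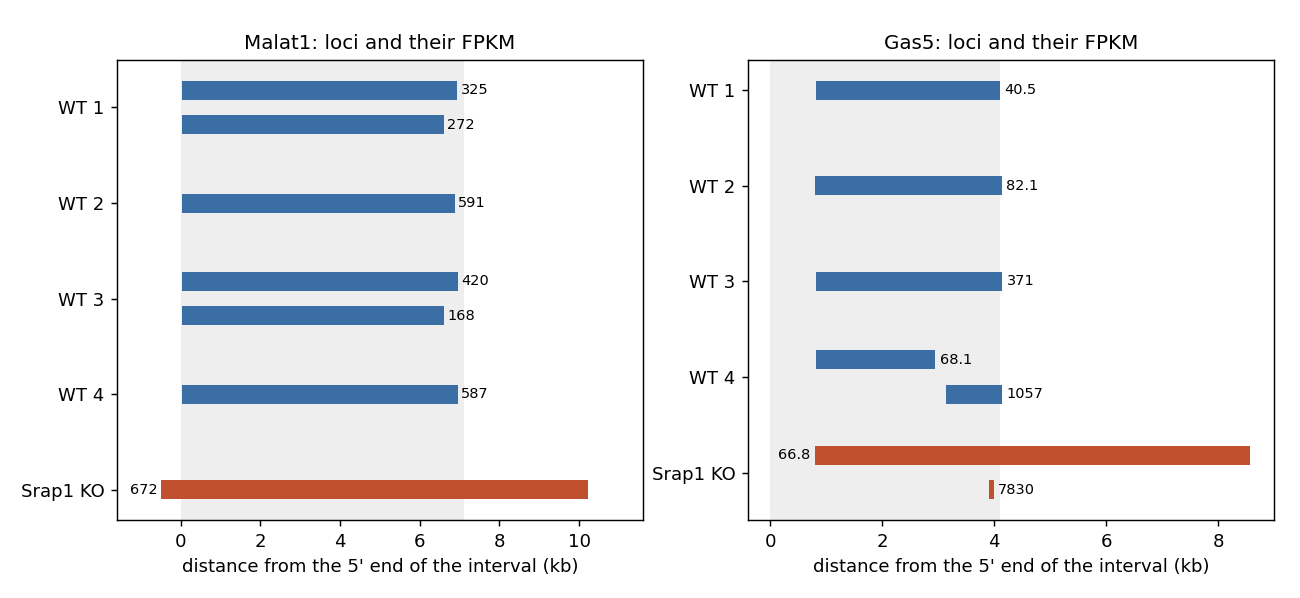
Loci over Malat1 (left) and Gas5 (right) in each RNA table, as bars along the distance from the 5′ end of the interval in kb; the grey area is the interval and the number beside each bar is its FPKM. Malat1 loci share their 5′ end in the wild type and the KO locus runs past both ends; the KO locus of Gas5 runs past the 3′ end and a second KO locus of 82 bases has 7830 FPKM.

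The ends of Malat1 were close in the wild type and wider in the KO. The 5′ end lay between 5802668 and 5802674 in the 4 wild-type tables, a range of 6 bases. The 3′ end of the stretch lay between 5795739 and 5795828, a range of 89 bases. The KO locus ran from 5792478 to 5803194 and was 10716 bases wide, against 6843 to 6929 bases in the wild type. It reached 520 to 526 bases further upstream and 3261 to 3350 bases further downstream than the wild-type loci. RefSeq lists the mascRNA gene, 58 bases long, inside Malat1, and no locus of that size was listed over Malat1 in any table.

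Neat1 was split in the wild type and whole in the KO. The wild-type tables listed 9, 5, 6 and 5 loci over it, in 8, 4, 5 and 4 separate stretches that covered 56.5%, 31.4%, 55.5% and 45.2% of the interval. Gaps between stretches ran from 52 to 7414 bases. The KO table listed 2 loci with the same ends, 5824708 to 5845582, that covered all but 8 bases of the interval. Their levels were 9.72 FPKM (bounds 9.16 to 10.3) and 19.1 FPKM (bounds 18.2 to 20.02). The table gives no exons or isoforms, so neither KO entry can be placed along the gene. How often loci over all regions were longer or less split in the KO was not examined. The wider KO loci of Malat1, Neat1 and Gas5 are therefore not shown to be particular to these genes.

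**Figure D2:**
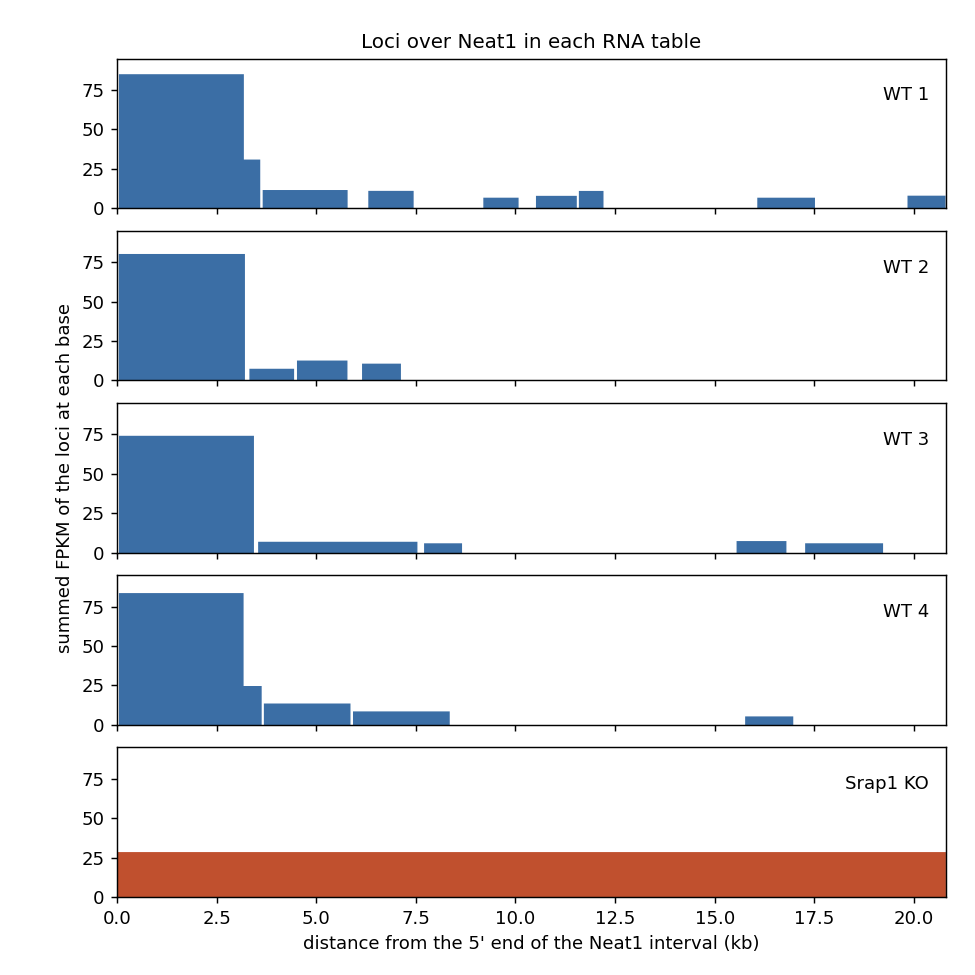
Summed FPKM of the loci at each base of Neat1, by distance from the 5′ end of the interval in kb, in the 4 wild-type tables and the KO table. Wild-type levels are 74.4 to 85.4 FPKM over the first 3 kb or so and at most 13.8 FPKM in the pieces beyond, while the KO loci span the gene with 1 value for each whole locus.

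In the wild type the 5′ part of Neat1 stood far above the rest. Each wild-type table had 2 overlapping loci at the 5′ end, whose sum was 85.4, 80.5, 74.4 and 83.9 FPKM over the 3127 bases they share in all 4 tables (5842335 to 5845462). Both isoforms begin at this end of the gene. The 17181 bases beyond the 5′ loci, on the side that only the long isoform is known to reach, held 7, 3, 4 and 3 pieces at 5.65 to 13.8 FPKM. With uncovered bases as 0 they averaged 4.53, 1.94, 3.25 and 3.39 FPKM, 18.8 to 41.5 times less than the 5′ stretch. The 5′ loci held 71.1% to 84.7% of the fragments implied for Neat1 in the wild type. The smallest pieces rested on 9.59 implied fragments, and bases listed in one wild-type table had no locus in another of like depth. A gap therefore shows that no locus was listed there, not that RNA was absent. The 5′ end lay between 5845462 and 5845468 in the wild type and 114 to 120 bases further upstream in the KO, while the 3′ end ranged over 13669 bases between the wild-type tables.

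Gas5 was the least steady of the 3 genes between wild-type tables. Wild type 1 had 1 locus at 40.5 FPKM with bounds from 0 to 1565, which leave its level unresolved. Wild type 2 had 1 locus at 82.1 FPKM (bounds 66.8 to 97.3). Wild type 3 had 1 locus at 371 FPKM (bounds 277 to 465), well clear of the bounds of wild type 2. Wild type 4 had 2 loci, the first of 2137 bases at 68.1 FPKM (bounds 49.7 to 86.4) and the second, at the 3′ end, of 985 bases at 1057 FPKM (bounds 748 to 1366).

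In the KO, Gas5 was a long locus with a very short one inside it. The long locus had 66.8 FPKM (bounds 64.6 to 69.0) and ran from 162965291 to 162973071, or 4434 to 4465 bases further downstream than the wild-type loci. The short locus, 162968409 to 162968491, was 82 bases wide and had 7830 FPKM (bounds 6422 to 9238). RefSeq lists 8 snoRNA genes of 60 to 83 bases inside Gas5. Whether the short locus is one of them was not tested, since the builds differ. FPKM of an RNA this short divides few fragments (124 implied) by a small length, so it is not on the footing of the long loci. The tables give no strand, so reads of overlapping genes cannot be told apart.

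The 5′ end of Gas5 was as steady as those of the other genes. It lay between 162965300 and 162965305 in the wild type and 9 to 14 bases further upstream in the KO, which is 791 to 805 bases inside the interval in all 5 tables. The RefSeq starts shown above are 565 bases apart and lie 3939 and 3374 bases from the end of the gene. The wild-type loci, from first to last base, spanned 3301 to 3337 bases, nearer to the length from the downstream start.

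To compare the tables, FPKM was averaged over all bases of each interval, with uncovered bases as 0 and overlapping loci added. FPKM is set per length of transcript and not of locus, so where a locus is spliced or holds several isoforms, as at Gas5 and Neat1, this mean is not the read coverage per base. Malat1 then had 569, 569, 565 and 572 FPKM in the wild-type tables and 672 FPKM in the KO. The log2 ratio of FPKM + 1 over the wild-type mean was 0.24, and the KO lay above all 4 wild-type values. Neat1 had 17.2, 14.0, 14.8 and 15.96 FPKM in the wild type and 28.8 FPKM in the KO, a log2 ratio of 0.85, again above the wild-type range. Gas5 had 32.5, 66.0, 298 and 282 FPKM in the wild type, a 9.17-fold range, and 211 FPKM in the KO, a log2 ratio of 0.31 inside that range. In every table the order was Malat1, then Gas5, then Neat1, and the wild-type ranges of the 3 genes did not overlap, although the bounds of Gas5 in wild type 1 span all of them.

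**Figure D3:**
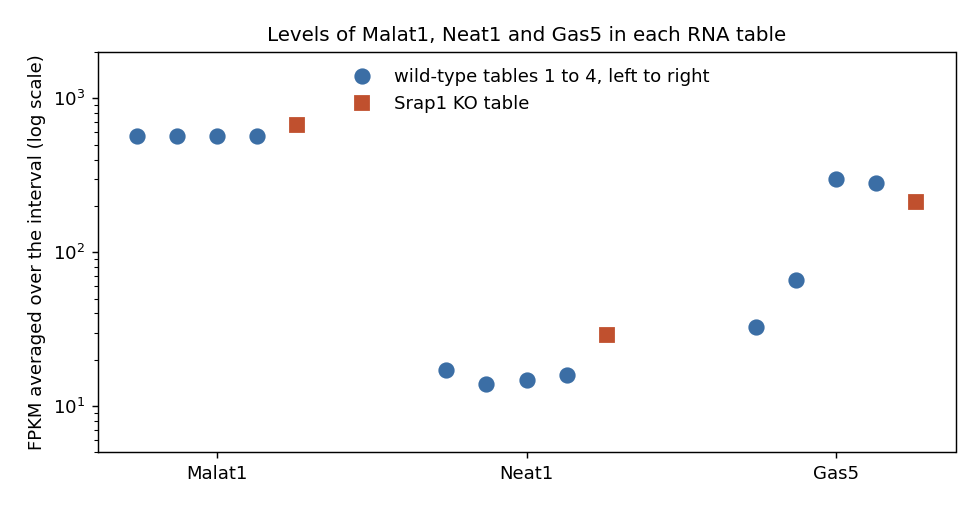
FPKM averaged over the interval (log axis) of Malat1, Neat1 and Gas5 in the 4 wild-type tables (circles) and the KO table (squares), 1 point per table with no error drawn. Malat1 is within 565 to 572 FPKM in the wild type and 672 FPKM in the KO, and Gas5 spreads from 32.5 to 298 FPKM within the wild type.

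By the rule used for calls, a KO value outside the wild-type range and at least 2-fold away, 0 of the 3 genes were called. The same rule called 39.2% of 3715 regions with a locus in all 4 wild-type tables, 856 of them higher (23%) and 602 lower (16.2%). For these regions FPKM was averaged over the span of merged wild-type loci and not over a fixed interval. Of loci paired between the KO and all 4 wild-type tables by a mutual overlap of at least 80%, 50.4% of 224 were called, and 0 of these loci lay in the 3 genes. With 1 KO sample there is no test between genotypes, and differences are read only against the wild-type range. That range comes from 4 tables counted as 1 sample. Whether it holds any variation between cultures or clones is not known, so a KO value outside it is not thereby a difference between genotypes. After the median of the ratios was removed the split was 582 higher and 735 lower. The KO lay outside the wild-type range, at any fold, in 63.8% of regions and above it in 40.2%. The position of Malat1 above it is therefore not particular to that gene. Neat1 lay above it over the fixed interval but below it over its own merged region. The median log2 ratio of the regions was 0.27, with quartiles of -0.62 and 0.96. Relative to that median Malat1 was at -0.031, Neat1 at 0.58 and Gas5 at 0.041 by the fixed intervals. This is not a like comparison, least of all at Neat1, where many uncovered wild-type bases of the interval count as 0. Over the merged regions of the genes the log2 ratios were 0.21 for Malat1, -0.29 for Neat1 and 0.29 for Gas5. By that measure, too, no gene was called.

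The direction at Neat1 depended on the measure. Over the 5′ stretch, an alternative chosen after the pieces were seen, the KO sum of 28.8 FPKM (bounds 27.7 to 29.9) lay below all 4 wild-type sums of 74.4 to 85.4 FPKM. This log2 ratio was -1.46 and would be called lower. Over the 17181 bases beyond, the KO had 28.8 FPKM against 1.94 to 4.53 FPKM, a log2 ratio of 2.80. The KO value is 1 level for the whole locus, so its excess beyond the 5′ stretch and its deficit within it come from the same number. Whether the long isoform, the short isoform or neither differs was not tested. Over the 8616 bases of its own merged region, Neat1 had 33.3 to 37.7 FPKM in the wild type and 28.8 FPKM in the KO. The direction at Gas5 depended on the short KO locus. Without it the KO interval mean gave a log2 ratio of -1.63, still inside the wild-type range. The lower end of that range is wild type 1 alone, at 32.5 FPKM, a level that its bounds leave unresolved. The long KO locus had 66.8 FPKM over 3309 bases of the interval. Wild type 2 had 82.1 FPKM over 3300 bases, and the interval means of wild type 3 and 4 were higher still. With the short locus and wild type 1 both left out, the KO would therefore lie below the wild-type range. The wild-type mean would rise, so the log2 ratio would be below -1.63 and Gas5 would be called lower. With either of them kept, its interval mean was not called.

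**Figure D4:**
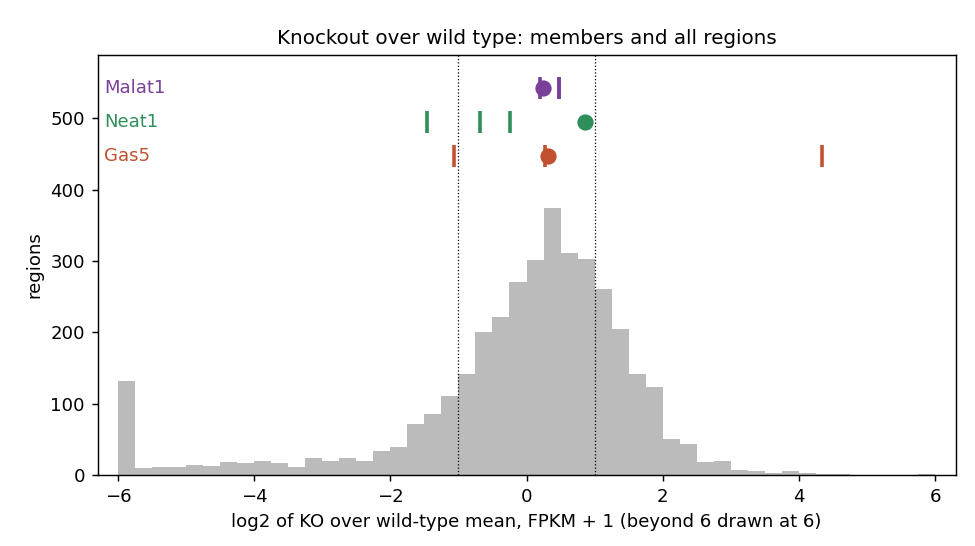
Histogram of the log2 ratio of KO over wild-type mean (FPKM + 1) for the 3715 regions, with each gene above it as a circle for the interval mean and as ticks for the locus of largest overlap, the highest locus and the mean over covered bases. The ticks of Neat1 reach from -1.47 to -0.24 while its circle is at 0.85, dotted lines mark 2-fold, and values beyond 6 in size are drawn at 6. The regions are bounded by wild-type loci, unlike the fixed intervals of the circles.

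Summed over each gene, the bounds implied fewer fragments for the FPKM than at typical loci. At loci of 500 to 2000 bases the bounds implied a median of 1.51 to 1.55 fragments per FPKM and kb in the wild type and 15.5 in the KO. At that rate Neat1 had 85.2% to 90.0% of the fragments its FPKM and widths call for in the wild type, and 31.4% in the KO. Malat1 had 29.0% to 44.5% in the wild type and 2.07% in the KO. Gas5 had 0.0014% to 27.6% in the wild type and 20.7% in the KO. A transcript shorter than its locus and bounds wider than counting noise would each lower this share, and their parts were not tested. For scale, the Malat1 gene is 6983 bases long in RefSeq. Its stretch was 6843 to 6929 bases wide in the wild type and 10716 in the KO. Taken singly, the wild-type Neat1 pieces beyond the 5′ loci had 1.37 to 1.95 fragments per FPKM and kb, mostly above the wild-type median.

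The neighbourhood of the genes held RNA loci in the KO table alone. The KO also listed far more loci in all, 143073 against 8882 to 9295 in each wild-type table. Within 10 kb on either side, the 4 wild-type tables listed 0 loci beside each gene, and the KO listed 6 beside Malat1, 5 beside Neat1 and 6 beside Gas5. Their levels were 1.22 to 9.75 FPKM. In the 22 kb between Malat1 and Neat1 the KO listed 4 loci at 1.22 to 2.33 FPKM. The lowest FPKM listed anywhere was 0.314 in the KO and between 1.55 and 2.11 in the wild-type tables, and 3 of the 6 KO loci beside Malat1, 1 of the 5 beside Neat1 and 1 of the 6 beside Gas5 were under the highest of these wild-type minima. The part of depth in the KO neighbours was not tested. How often other regions have neighbouring loci in the KO alone was not examined. The KO neighbours are therefore not shown to be particular to these genes.

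Among the other regions of at least 300 bases, those closest to each gene over the 5 tables were found by Euclidean distance in log2(FPKM + 1). The closest to Malat1 was chromosome 6, 66825263 to 66825764, at 531 to 564 FPKM in the wild type and 504 FPKM in the KO, with a distance of 0.442. The next 2, on chromosomes 16 and 3, were at distances of 1.24 and 1.99. The closest to Neat1 was chromosome 17, 56461401 to 56462959, at 12.7 to 15.9 FPKM in the wild type and 26.7 FPKM in the KO, with a distance of 0.243. Regions on chromosomes 8 and 4 followed at 0.287 and 0.360. Gas5 had no region as near, since the closest, chromosome 9, 59504335 to 59524952, was at a distance of 1.94. Picked for likeness, it had 51.1 and 45.3 FPKM in wild type 1 and 2, and 143 and 160 FPKM in wild type 3 and 4.

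The DNA of the genes was covered in 1 control library, in which IgG was used to precipitate DNA of Srap1 KO cells (IgG DIP). A wild-type counterpart was not analysed here. Reads with a mapping quality of at least 30 numbered 70 over Malat1, or 9.86 per kb (95% exact Poisson interval 7.69 to 12.5), against 4.74 per kb in the 100 kb on either side. Neat1 held 123, or 5.91 per kb (4.91 to 7.06), against 4.52 per kb beside it. Gas5 held 26, or 6.34 per kb (4.14 to 9.29), against 3.84 per kb. All 3 densities were above those of their flanks, with ratios of 2.08, 1.31 and 1.65, and the intervals cover counting error only. Among 2897 autosomal regions of at least 2 kb the median ratio was 1.02, and 0.828% had at least the ratio of Malat1, 12.0% that of Neat1 and 2.76% that of Gas5. Base composition was not tested. Of the 1730 windows listed for a control ChIP with IgG, 0 overlapped any of the 3 genes. The share of other regions that overlap a window was not examined, so no lack of background at these genes is read from this.

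**Figure D5:**
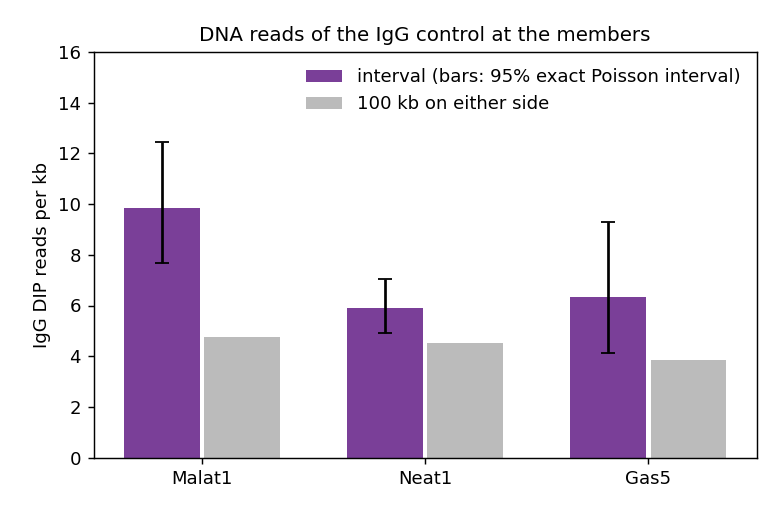
IgG DIP reads per kb, starting at 0, over each gene with its 95% exact Poisson interval and in the 100 kb on either side. The Malat1 bar of 9.86 reads per kb stands above its flanks at 4.74.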

How the data were processed

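RNA of wild-type and Srap1 KO ES cells was measured in 6 samples, of 31 in the series. The authors deposited FPKM with lower and upper bounds per locus, and per the submitters' processing notes Trim Galore 0.3.5, Bowtie 0.12.8, MACS2 2.1.1 and Cufflinks 2.2.1.0 were used with build mm9, in no stated order and with no settings. Mapping quality is the score in the deposited IgG DIP reads. Positions are printed as the files give them.

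Implied fragments are the square of FPKM over its standard error, taken as the distance to the upper bound divided by 2. Loci with at least 1 overlapping base counted. Regions are merged loci with a locus in all 4 wild-type tables and a mean of at least 1 FPKM. Levels were compared on the log2(FPKM + 1) scale, where changes of low loci come out too small. Python 3.11.15, numpy 2.4.6, pandas 2.3.3 and scipy 1.17.1 were used, and averaging and calls were tested on simulated data. The genes and lists were chosen with earlier results of these data known. The planned lists of other snoRNA hosts, nuclear RNAs and cell type markers were not read, for want of an mm9 annotation. Named items were the 3 genes and the 3 nearest regions of each. Alternatives covered the measure, overlap, interval, pseudocount, scaling and each wild-type table left out.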

Additional observations from a re-analysis of the deposited data

Results flagged for a closer look

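Of 15 quantities examined over the 4 wild-type tables, 5 had a table far from the other 3. Chance gives about 1 in 20 for a single quantity, but these 5 are not independent. Coverage and span at Malat1 share an end, and the number of loci and coverage at Gas5 share a split. The number of Gas5 loci is also a count without spread among the other 3 tables, to which that rate does not apply. No excess over chance is therefore read from the 5. At Malat1, wild type 2 covered 96.4% of the interval and spanned 6843 bases, while the others covered 97.5% to 97.6% and spanned 6920 to 6929 bases. At Gas5, the locus of largest overlap had 371 FPKM in wild type 3 and 40.5 to 82.1 FPKM in the others, but this leaves out the second locus of wild type 4, at 1057 FPKM. By interval mean wild type 3 did not stand alone, with 298 FPKM beside 282 FPKM in wild type 4. Gas5 had 2 loci in wild type 4 and 1 in each of the others, and there its loci covered 75.4% of the interval, against 80.4% to 80.5%.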

How the results depend on the processing

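The log2 ratios of KO over wild type were recomputed, and the 5′ stretch of Neat1 and the removal of loci under 300 bases were chosen after seeing the data. Malat1 (0.24) was 0.48 by the locus of largest overlap or highest FPKM, 0.20 over covered bases, 0.43 in an interval widened by 500 bases and -0.031 after median scaling. It was -3.47 by implied fragments as a share of the table, which rests on the bounds described above, and 8.03 after quantile normalization, which sets levels by rank alone (22 in the KO and 58 to 63 in the wild type). Neat1 (0.85) was -0.68 by the locus of largest overlap, -0.24 over covered bases, -1.47 by the highest locus, -0.79 by implied fragments, 0.58 after median scaling, 0.67 after quantile normalization and -1.46 over the 5′ stretch. Gas5 (0.31) was 4.33 by the highest locus, 2.17 by implied fragments, -1.06 by the locus of largest overlap and -1.63 without loci under 300 bases. Only the -3.47 and 8.03 of Malat1, the -1.47 and -1.46 of Neat1 and the 4.33 and 2.17 of Gas5 would be called among these. Without each wild-type table in turn Malat1 stayed at 0.24, Neat1 was 0.81 to 0.90, and Gas5 was -0.032 without wild type 1, 0.045 without wild type 2, 0.73 without wild type 3 and 0.67 without wild type 4. The count of 1458 called regions was 113 of 224 when loci were paired by a mutual overlap of at least 80%, a set with 0 loci of these genes, and 1299 to 1543 otherwise. Under both other overlap settings the number of loci per gene and table stayed the same, except that the KO had 3 loci in place of 2 at Gas5 in the widened interval. No paired analysis was possible because the KO has 1 sample. For causes other than those stated, the cause was not tested.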
